A study of Mus musculus with 8 samples.

Results

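The enzymes that write, copy, edit and remove DNA methylation were followed through depletion of 3 subunits of the HIRA histone chaperone complex in mouse ESCs. The group was defined by name and comprised 9 genes, Dnmt1, Dnmt3a, Dnmt3b, Dnmt3l, Uhrf1, Tet1, Tet2, Tet3 and Tdg, of the 55418 genes in the count tables. All 9 had counts in every library and all 9 passed the filter on low counts in each comparison. RNA-seq had been performed on E14 ESCs, a feeder-free mouse line grown on gelatin in serum and LIF, with 2 libraries from each of 4 conditions. Depleted cells had received an shRNA against Hira, Ubn1 or Ubn2 in the pSUPER-puro plasmid. Control cells are called wild type in the sample labels, while the study's methods describe a luciferase shRNA as its control. Transfected cells were selected in puromycin for 3 days. Every sample came from 1 cell line and the same medium. Nothing in the labels says that the 2 libraries of a condition came from separate cultures, so the p-values measure only the spread between these libraries.

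DNA methylation in mammals is set on cytosines next to guanines. Dnmt3a and Dnmt3b place it on unmethylated DNA, and Dnmt3l, which has no catalytic activity, binds and stimulates both. After each round of replication Uhrf1 recognises the half-methylated sites and brings in Dnmt1, which copies the mark to the new strand. The Tet enzymes oxidise methylcytosine, and the glycosylase Tdg cuts out the most oxidised forms so that base excision repair can restore cytosine. ESCs in serum are known for high Dnmt3l and Tet1 and for low Tet3, and they tolerate loss of methylation better than differentiated cells do.

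Upstream sequence is shown for the 3 members that were called after Hira depletion (Dnmt3l, Uhrf1 and Tet1) and for Dnmt1. The sequences are RefSeq promoters on build GRCm38.p6, printed 5′ to 3′ on the strand of the gene, and all 9 members matched that table with 16 windows of 250 bases upstream of a start. Capitals mark matches on either strand to TTTNGCGC (a motif of the E2F type, known from genes of DNA replication), CACGTG (an E-box) or GGGCGG (a GC box). For Dnmt3l and Uhrf1 the window with the fewest annotated exon bases, then the most CG dinucleotides, was printed. Tet1 was cut to its exon-free stretch of 88 bases and Dnmt1 to 30 bases around its TTTNGCGC match. The full Tet1 and Dnmt1 windows also held 1 and 2 GGGCGG matches outside the printed parts, so the printed sequences cannot be compared for motif content.
Dnmt3l, chr10:78049592-78049841, plus strand, the 250 bases before a start: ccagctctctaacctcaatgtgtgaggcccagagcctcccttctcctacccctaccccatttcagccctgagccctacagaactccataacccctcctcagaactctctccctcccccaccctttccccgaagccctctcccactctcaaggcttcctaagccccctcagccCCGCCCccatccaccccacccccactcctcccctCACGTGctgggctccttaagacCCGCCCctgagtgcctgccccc
Uhrf1, chr17:56304063-56304312, plus strand, the 250 bases before a start: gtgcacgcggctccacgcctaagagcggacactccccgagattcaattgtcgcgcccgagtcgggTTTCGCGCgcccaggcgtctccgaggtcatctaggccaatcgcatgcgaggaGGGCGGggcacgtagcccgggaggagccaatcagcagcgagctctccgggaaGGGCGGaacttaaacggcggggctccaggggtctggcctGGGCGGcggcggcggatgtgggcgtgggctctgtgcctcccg
Tet1, chr10:62887325-62887412, minus strand, the 88 bases before the start: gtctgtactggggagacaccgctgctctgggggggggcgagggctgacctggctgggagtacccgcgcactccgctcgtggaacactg
Dnmt1, chr9:20952824-20952853, minus strand, bases 230 to 201 before a start: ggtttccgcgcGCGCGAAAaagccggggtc
The 2 maintenance genes, Dnmt1 and Uhrf1, were the members with a TTTNGCGC match, in 2 of the 16 member windows, against 1.13% of the 32817 windows searched. CACGTG was found in 3 of the 16 windows and in 6.02% of all windows. GGGCGG was common, with matches in 11 of the 16 windows and in 32.7% of all windows. The Dnmt3l window printed held 4 CG dinucleotides and that of Uhrf1 held 30, beside a median of 6 over all windows. A match is a run of letters and no evidence of binding.

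Libraries held between 19710040 and 32706053 counts on genes. The targeted gene was lower in both libraries of its own depletion, at 10.0 and 10.4 CPM for Hira against 89.5 and 97.7 in control, at 23.8 CPM in both for Ubn1 against 53.1 and 44.1, and at 30.1 and 24.6 CPM for Ubn2 against 50.1 and 51.7. CPM values are read counts scaled to a common library size with TMM factors. ESC identity was checked with Pou5f1, Nanog and Sox2, of which Pou5f1 lay between 942 and 1256 CPM across libraries and the summed CPM of 10 ESC markers between 5018 and 5829. Both Hira-depleted libraries summed to less than both controls, at 5018 and 5335 against 5616 and 5829 CPM. Pou5f1 was lower there, at 942 and 1036 against 1170 and 1256 CPM. Nanog was higher, at 598 and 526 against 473 and 424 CPM, as was Sox2, at 417 and 447 against 352 and 395 CPM. By edgeR adjusted p alone 2 of the 10 ESC markers were higher and 3 lower after Hira depletion, against 17.6% and 17.3% of genes tested. No ESC marker was called there by edgeR or DESeq2. After Ubn2 depletion 1 ESC marker was called higher and 2 lower. Of all genes tested, edgeR called 10.8% higher and 5.4% lower after Hira depletion. These shares were 1.53% and 1.56% after Ubn1 and 9.59% and 8.75% after Ubn2 depletion. Marker counts near such shares are no result about the markers. Markers of 2-cell-like cells moved with all 3 depletions. Their summed CPM was 5.19 to 10.2 in control and 25.7 to 34.7 after Hira depletion. It was 21.1 to 22.4 after Ubn1 and 35.6 to 50.6 after Ubn2 depletion. Called higher after Hira, Ubn1 and Ubn2 depletion were 8 of 8, 5 of 8 and 10 of 10 tested markers. Zfp352 and Tcstv1 had too few counts to be tested in any depletion, and Dux was not analysed here. Tcstv3 and Gm4340 had too few after Hira and Ubn1 depletion, and passed the filter against control only with the Ubn2-depleted libraries. Markers this low in control can enter the test through the depleted libraries where they are high, so these counts are no independent support. Fibroblast markers summed to 36.6 to 50.5 CPM over all libraries. Both Ubn2-depleted libraries, at 40.9 and 36.6 CPM, summed to less than both controls, at 42.5 and 45.3 CPM. Col3a1 went against this sum, with no counts in the control and Ubn1-depleted libraries but 6.76 and 4.13 CPM after Ubn2 depletion. Of the fibroblast markers tested, 2 of 4 were called higher and 1 lower after Hira depletion and 4 of 7 higher and 2 lower after Ubn2 depletion. Dcn, Lum and Prrx1 were too low to test in any depletion. Col1a2, Col3a1 and Postn were too low after Hira and Ubn1 depletion and passed the filter only in comparisons with Ubn2-depleted libraries. The counts after Hira and Ubn2 depletion are therefore not comparable, and calls of such genes are no independent support. Primed epiblast markers, Dnmt3b among them, had 4 of 8 called higher and 1 lower after Hira, 2 of 8 higher after Ubn1, and 3 of 8 higher and 1 lower after Ubn2 depletion. Of 9 primitive endoderm markers tested, 1 was called higher and 1 lower after Hira depletion and 2 lower after Ubn1 depletion. By edgeR adjusted p alone 2 were higher and 2 lower after Ubn1 depletion. Their summed CPM was above control there, at 103 and 110 against 85.8 and 81.7. In bulk RNA, fewer cells of a type and less RNA per cell cannot be told apart, and the part of these cells in the values below was not tested.

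Levels in control ESCs spanned a wide range once divided by exon length. Uhrf1 was the highest at 126 ± 0.675 CPM per kb (SD, n = 2), followed by Dnmt3l at 96.5 ± 6.61, Dnmt1 at 56.3 ± 0.975 and Tet1 at 45.1 ± 2.58 CPM per kb. Dnmt3b, Tet2 and Dnmt3a came next at 12.3 ± 1.12, 12.3 ± 0.931 and 12.2 ± 0.823 CPM per kb, and their libraries overlapped, so no order among them could be given. Tdg stood at 7.42 ± 0.316 CPM per kb and Tet3 at 0.315 ± 0.0741 CPM per kb. The other neighbours in this order did not overlap between control libraries. After Hira depletion the libraries of Dnmt3l (50.9 ± 8.76 CPM per kb) and Dnmt1 (48.5 ± 3.38 CPM per kb) overlapped, whereas they had been apart in control. Lengths are those of all annotated exons joined, which can be longer than the transcripts that ESCs make.

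**Figure D1:**
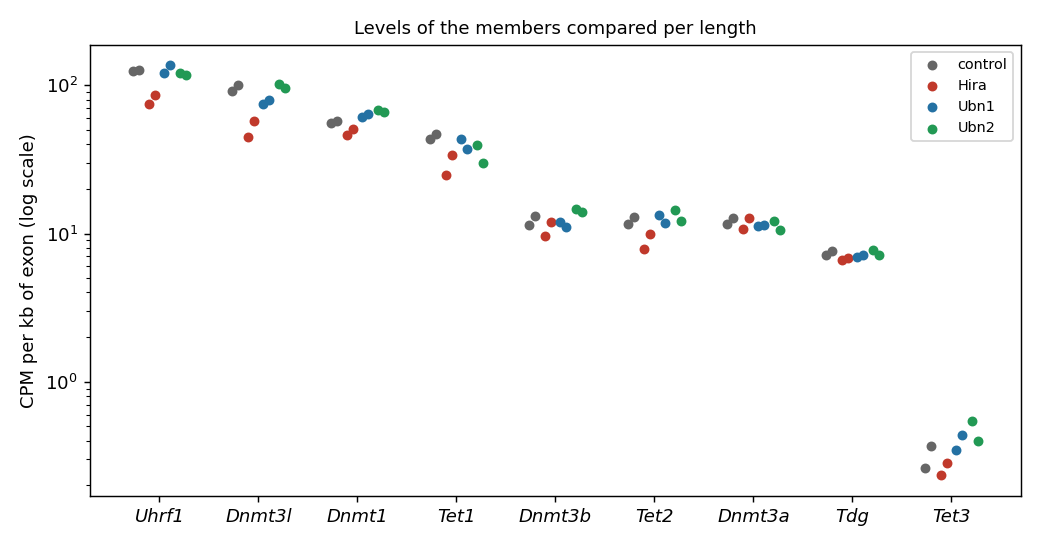
Level of each member in each of the 8 libraries as CPM per kb of exon, on a log axis, with members ordered by their control mean and points coloured by condition. Control means ran from 126 for Uhrf1 to 0.315 for Tet3, and the Dnmt3l points after Hira depletion (red) sit at the level of Dnmt1.

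Hira depletion was compared with control to see how these genes respond when the subunit that gives the complex its name is lowered. Dnmt3l, Uhrf1 and Tet1 fell by more than 1.5-fold, Tet2 and Dnmt1 fell by less, and the de novo enzymes Dnmt3a and Dnmt3b did not pass the test. Calls required both an adjusted p under 0.05 (edgeR quasi-likelihood test, Benjamini-Hochberg over all 19035 genes tested) and a change of more than 1.5-fold. By this rule 3 of 9 members were called lower, against 5.4% of all genes tested. None was called higher by edgeR or DESeq2, against 10.8% of genes tested by edgeR, and none was above control even at an unadjusted p under 0.05. By adjusted p alone 5 of 9 were lower, against 17.3% of genes tested, with 17.6% of genes higher. The 2 depleted libraries lay below both control libraries for 6 members, where 31.4% of genes did so. All 9 fitted changes were below 0, with a median log2 fold change of -0.32.

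Among the de novo methylation genes, Dnmt3l (chr10:78041947-78063622, plus strand) moved most. It measured 274 and 302 CPM in control and 134 and 171 CPM after Hira depletion. Both depleted libraries were well below both controls. The log2 fold change was -0.94 ± 0.09 (SE; edgeR adjusted p = 1.95e-07), so Dnmt3l mRNA fell by 47.9%. Dnmt3l shares 67 antisense exon bases with Aire, and the strand setting of the counting is not given in the sources used here. Its partner Dnmt3a (chr12:3806007-3914443, plus strand) measured 194 and 213 CPM in control and 178 and 213 CPM after Hira depletion, so the groups overlapped (log2 fold change -0.08 ± 0.08, edgeR adjusted p = 0.525). Dnmt3b (chr2:153649450-153687730, plus strand) measured 58.6 and 66.7 CPM in control and 49.4 and 60.9 CPM after depletion, which also overlapped (log2 fold change -0.21 ± 0.10, edgeR adjusted p = 0.106). Within each library the ratio of Dnmt3l to Dnmt3a CPM, not corrected for length, was 1.41 and 1.42 in control and 0.750 and 0.801 after Hira depletion. The cofactor was thus lower relative to the enzyme it stimulates in both depleted libraries.

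In the maintenance pair, Uhrf1 fell more than Dnmt1. Uhrf1 (chr17:56303321-56323486, plus strand), which reads half-methylated DNA, measured 535 and 539 CPM in control and 320 and 366 CPM after Hira depletion. The groups were apart, with a log2 fold change of -0.67 ± 0.08 (edgeR adjusted p = 1.68e-06). Dnmt1 (chr9:20907209-20959888, minus strand), the copying enzyme, measured 411 and 421 CPM in control against 340 and 375 CPM, and its log2 fold change of -0.23 ± 0.08 passed the test without reaching 1.5-fold (edgeR adjusted p = 0.0196). With 1 library fewer this test was lost in 3 of 4 cases, at adjusted p from 0.0670 without control replicate 1 to 0.130 without Hira-depleted replicate 1. The ratio of Uhrf1 to Dnmt1 CPM was 1.30 and 1.28 in the control libraries and 0.940 and 0.975 in the Hira-depleted libraries. Uhrf1 has a copy, Gm5648, that is 98.3% identical over 1590 bases.

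Among the demethylation genes, Tet1 (chr10:62804570-62908996, minus strand) measured 669 and 725 CPM in control and 386 and 526 CPM after Hira depletion. Both depleted libraries were lower, but they differed from each other more than the controls did. Its log2 fold change was -0.63 ± 0.10 (edgeR adjusted p = 6e-05), and without Hira-depleted replicate 1 it was -0.42, under 1.5-fold, as it also was without control replicate 2. Tet2 (chr3:133463679-133545139, minus strand) went from 196 and 218 CPM to 132 and 168 CPM, with no overlap (log2 fold change -0.49 ± 0.09, edgeR adjusted p = 0.000362). Tet3 (chr6:83362373-83459084, minus strand), the Tet enzyme known from the oocyte and zygote, was near its low control level, at 3.91 and 4.75 CPM against 4.39 and 6.14 CPM, and its change did not pass (log2 fold change -0.32 ± 0.23, edgeR adjusted p = 0.295). Tdg (chr10:82629828-82650799, plus strand) measured 35.8 and 36.8 CPM against 38.7 and 41.1 CPM (log2 fold change -0.15 ± 0.10, edgeR adjusted p = 0.226). Values for Tdg are uncertain because the copy Gm9855 is 99.2% identical to it over 1194 bases and took between 649 and 1032 counts per library.

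**Figure D2:**
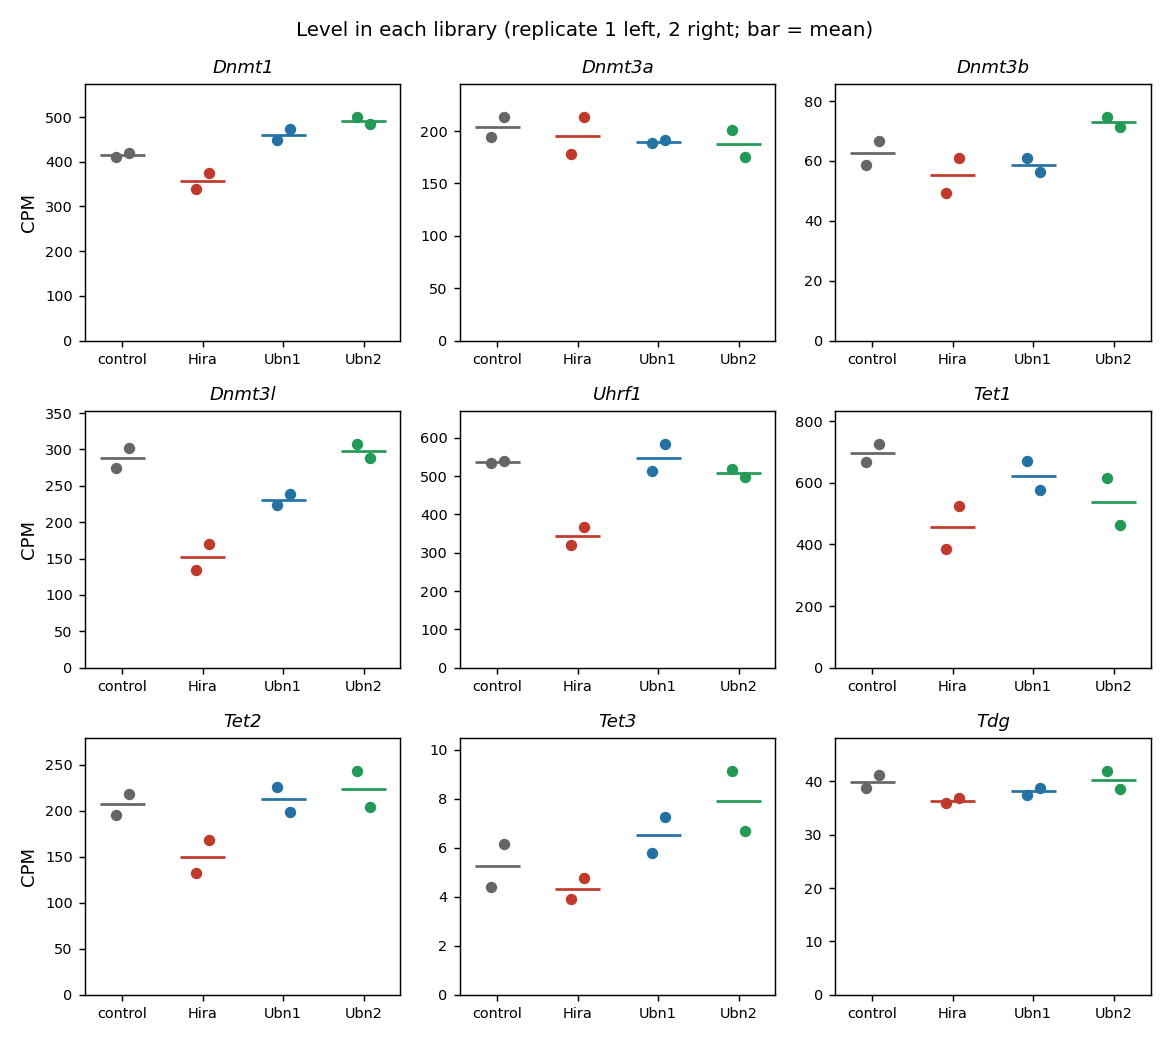
CPM of each member in every library, 1 panel per gene with its own axis from 0, for control and the Hira, Ubn1 and Ubn2 depletions, with bars at the mean of 2 libraries. Dnmt3l, Uhrf1, Tet1 and Tet2 sit below control in both Hira-depleted libraries, while Dnmt3a overlaps control there.

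The 2 Hira-depleted libraries were not alike in these genes. All 9 members were lower in replicate 1 than in replicate 2, while 50.6% of the 19035 genes tested were. The control libraries also differed one way for all 9 members, and the Ubn2-depleted libraries differed the other way for all 9. Leaving out Hira-depleted replicate 1 left 1 member called, Dnmt3l, at a log2 fold change of -0.78, with Uhrf1 at -0.57. Without Hira-depleted replicate 2 the Dnmt3l log2 fold change was -1.13.

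Ubn1 depletion changed these genes least. No member was called by edgeR or by DESeq2, where 3.09% of the 18373 genes tested were called by edgeR, and 1 member had an unadjusted p under 0.05. That member was Dnmt3l, at 224 and 238 CPM against 274 and 302 CPM in control. Both Ubn1-depleted libraries lay below control and above both Hira-depleted libraries. Its log2 fold change was -0.32 ± 0.09 (edgeR adjusted p = 0.0270), where 3.62% of genes were lower by adjusted p alone. Without control replicate 1 or replicate 2 it no longer passed, at adjusted p = 0.139 and 0.405 by edgeR. Uhrf1 stood at 513 and 583 CPM and Tet1 at 671 and 576 CPM, and both overlapped control. Dnmt1, at 449 and 473 CPM, lay above both controls, but its log2 fold change of 0.15 ± 0.09 did not pass (edgeR adjusted p = 0.360). The other members had log2 fold changes between -0.16 and 0.30, and none passed the test. In its own depletion the Ubn1 mRNA fell by 51.0%, while Hira mRNA fell by 89.2% and Ubn2 mRNA fell by 46.2% in theirs.

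After Ubn2 depletion the members moved in both directions and by small amounts. None was called by edgeR or DESeq2, where edgeR called 18.3% of the 18219 genes tested, and 4 had an unadjusted p under 0.05. By adjusted p alone 4 members passed, 3 higher and 1 lower, against 39.1% of all genes tested. Dnmt1 rose to 500 and 484 CPM from 411 and 421 CPM in control, with both libraries above control (log2 fold change 0.24 ± 0.07, edgeR adjusted p = 0.00873). Without control replicate 1 it no longer passed (edgeR adjusted p = 0.0648). Dnmt3b rose to 74.6 and 71.3 CPM from 58.6 and 66.7 CPM (log2 fold change 0.22 ± 0.08, edgeR adjusted p = 0.0421), a test it kept in 4 of 11 alternatives. Tet3 stayed the lowest member while rising to 9.11 and 6.68 CPM from 4.39 and 6.14 CPM (log2 fold change 0.57 ± 0.21, edgeR adjusted p = 0.0336). Its counts were 90 to 198 per library, which makes it the least precise of the 9, and by DESeq2 its adjusted p was 0.133. Without Ubn2-depleted replicate 1 or control replicate 1 the Tet3 log2 fold change was 0.33 and 0.36, and neither passed (edgeR adjusted p = 0.323 and 0.224). Tet1 fell to 616 and 462 CPM from 669 and 725 CPM (log2 fold change -0.37 ± 0.10, edgeR adjusted p = 0.00390). By DESeq2 its adjusted p was 0.198, and the 2 depleted libraries were far apart. Without Ubn2-depleted replicate 2 its log2 fold change was -0.18 and no longer passed (edgeR adjusted p = 0.0805), and without replicate 1 it was -0.59. Dnmt3l, at 307 and 288 CPM, overlapped control with a log2 fold change of 0.04 ± 0.07 (edgeR adjusted p = 0.667), and Uhrf1, at 518 and 498 CPM, changed by -0.08 ± 0.07 (edgeR adjusted p = 0.377).

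**Figure D3:**
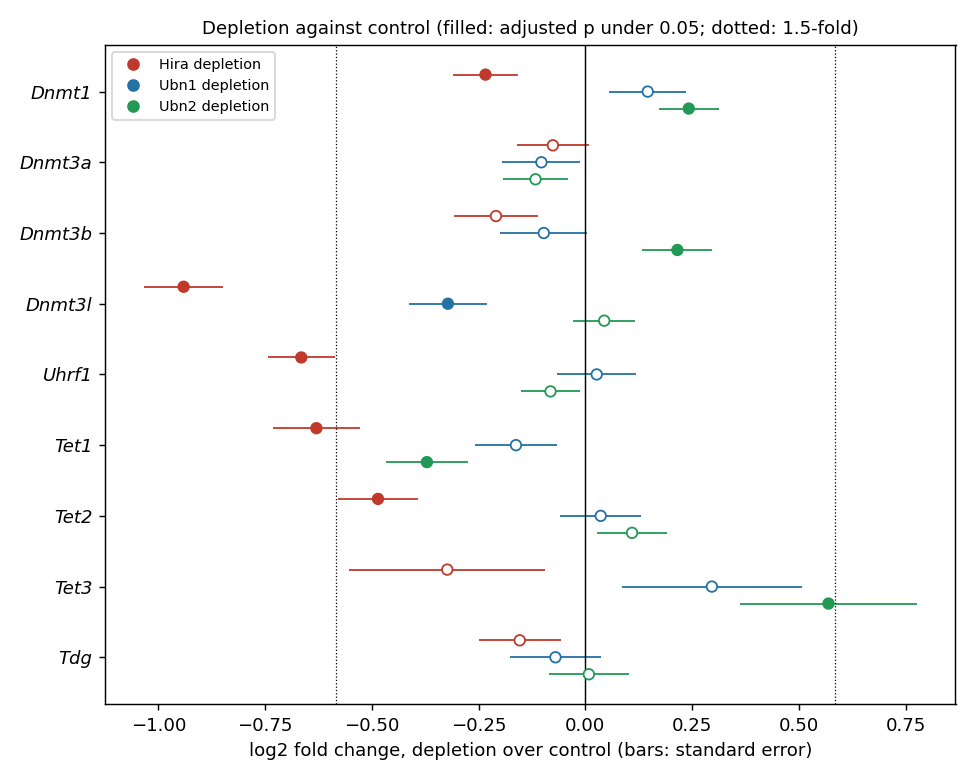
Log2 fold change of each member after each depletion against the same 2 control libraries, with standard errors as bars, filled points for an adjusted p under 0.05 and dotted lines at 1.5-fold. Filled points left of the line are Dnmt3l (-0.94), Uhrf1 (-0.67) and Tet1 (-0.63) after Hira depletion, and no point of the other depletions is filled beyond a line.

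The balance within families also differed between libraries. Tet1 made up 76.95% and 76.4% of the summed CPM of the 3 Tet genes in control, 73.9% and 75.3% after Hira, 74.3% and 73.6% after Ubn1 and 71.0% and 68.7% after Ubn2 depletion. The share was lower than control in every depleted library and lowest in the Ubn2-depleted libraries. The ratio of Dnmt3b to Dnmt3a CPM was 0.302 and 0.313 in control and 0.372 and 0.407 after Ubn2 depletion, against 0.277 and 0.286 after Hira depletion. For Uhrf1 to Dnmt1, the ratio after Ubn2 depletion was 1.04 and 1.03, also under both controls, here with a higher Dnmt1. The Ubn1-depleted libraries lay under both controls as well, at 1.14 and 1.23 for Uhrf1 to Dnmt1 and at 1.19 and 1.24 for Dnmt3l to Dnmt3a. These are ratios of CPM, not corrected for length, and with 2 libraries a group they are given without a test.

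**Figure D4:**
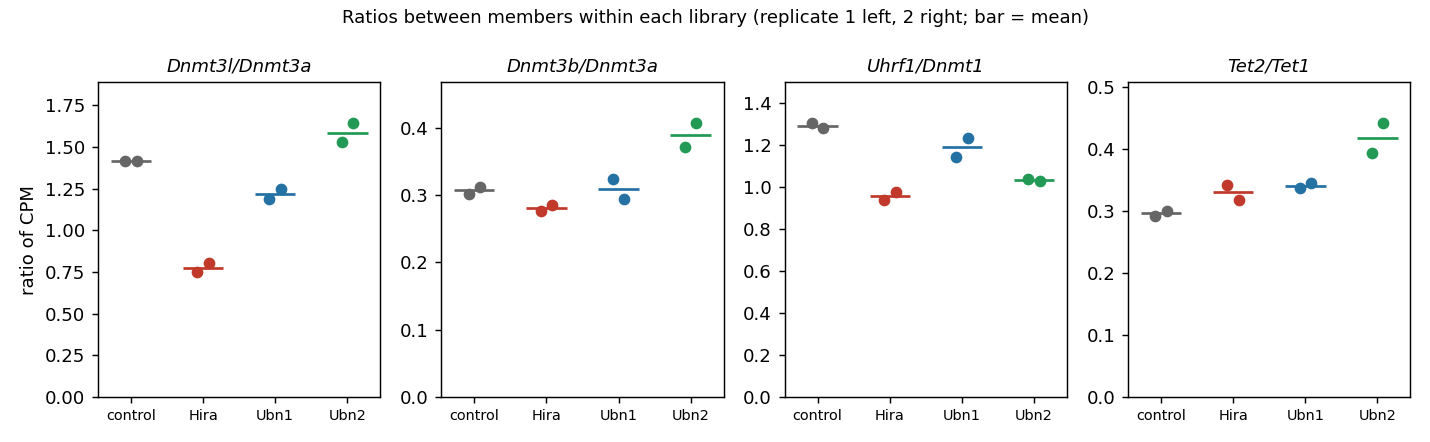
Ratios of CPM between pairs of members within each library, with bars at the mean of 2 libraries and axes from 0. The Dnmt3l to Dnmt3a ratio falls from 1.42 in control to 0.775 after Hira depletion, and the Uhrf1 to Dnmt1 ratio from 1.29 to 0.957 after Hira and 1.03 after Ubn2 depletion.

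Because the 3 depletions share their control libraries, they were also set against each other directly. Dnmt3l was lower after Hira than after Ubn2 depletion by -0.96 ± 0.10 on the log2 scale (edgeR adjusted p = 6.44e-06) and lower than after Ubn1 depletion by -0.60 ± 0.11 (edgeR adjusted p = 0.000207). It was also higher after Ubn2 than after Ubn1 depletion, by 0.36 ± 0.09 (edgeR adjusted p = 0.0116), a difference that did not pass without Ubn2-depleted replicate 1 (edgeR adjusted p = 0.195). The levels of Dnmt3l thus fell into 3 separate steps, Hira below Ubn1 below Ubn2, and the Ubn2-depleted libraries overlapped control. Uhrf1 was lower after Hira than after Ubn1 depletion by -0.67 ± 0.11 (edgeR adjusted p = 4.92e-05) and than after Ubn2 depletion by -0.56 ± 0.08 (edgeR adjusted p = 0.000149). Between Ubn2 and Ubn1 depletion it differed by -0.11 ± 0.10 (edgeR adjusted p = 0.481).

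Between Hira and Ubn2 depletion 2 members were called lower, Dnmt3l and Tet3, against 5.61% of the 18563 genes tested, and 6 were lower by adjusted p alone, against 17.2%. Without Ubn2-depleted replicate 1 Tet3 was no longer called. Tet3 differed by -0.87 ± 0.22 (edgeR adjusted p = 0.00589), Tet2 by -0.57 ± 0.11 (0.000756 by the same test) and Dnmt3b by -0.40 ± 0.09 (0.00420). Tet1 did not pass between these depletions, at -0.24 ± 0.13 (edgeR adjusted p = 0.189). This value depended on the libraries, since Tet1 passed at -0.47 without Hira-depleted replicate 2 (edgeR adjusted p = 1.29e-05) and at -0.43 without Ubn2-depleted replicate 2 (edgeR adjusted p = 0.00122), in 4 of 12 alternatives in all. Between Hira and Ubn1 depletion 2 members were called lower, Uhrf1 and Dnmt3l, against 3.16% of 18819 genes, and 5 were lower by adjusted p alone, against 10.2%. Tet1 was among them, at -0.44 ± 0.12 (edgeR adjusted p = 0.00955), but without Hira-depleted replicate 1 it was -0.24 (edgeR adjusted p = 0.321), and by DESeq2 its adjusted p was 0.190. Tet3 stood at -0.60 ± 0.23 (edgeR adjusted p = 0.0533) and was called in 6 of 12 alternatives. Without Hira-depleted replicate 1 no member was called between Hira and Ubn1 depletion by edgeR, and without Ubn1-depleted replicate 2 the single call was Tet2. Between Ubn2 and Ubn1 depletion no member was called by edgeR or DESeq2, where edgeR called 8.7% of 18205 genes, and 2 members, Dnmt3l and Dnmt3b, were higher by adjusted p alone, against 8.6%, the same number as at an unadjusted p under 0.05. Dnmt3a passed in none of the 6 comparisons by edgeR, with log2 differences between -0.12 and 0.06 and adjusted p between 0.239 and 0.926.

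**Figure D5:**
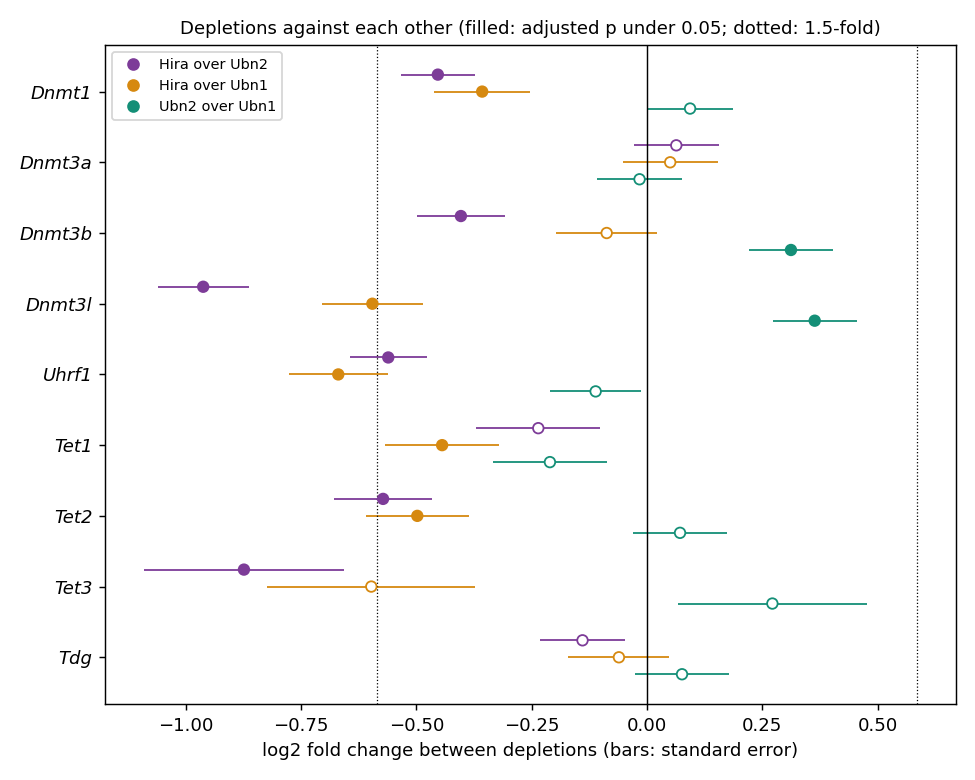
Log2 fold change of each member between pairs of depletions, with standard errors as bars, filled points for an adjusted p under 0.05 and dotted lines at 1.5-fold. Dnmt3l lies at -0.96 for Hira over Ubn2 and -0.60 for Hira over Ubn1, and Dnmt3a stays near 0 in all 3 pairs.

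Genes that work with these enzymes were taken from lists by function. Over all genes tested, the shares called higher and lower were 10.8% and 5.4% after Hira, 1.53% and 1.56% after Ubn1, and 9.59% and 8.75% after Ubn2 depletion. Of 14 cofactors and recruiters of the methylation machinery, 3 were called lower and 1 higher after Hira depletion, with 8 lower by adjusted p and a median log2 fold change of -0.23. The chromatin remodeller Hells, which is needed for methylation of repeats, went from 278 and 259 CPM in control to 109 and 115 CPM, with a log2 fold change of -1.28 ± 0.08 (edgeR adjusted p = 2.79e-10). Pcna, the replication clamp that carries Dnmt1, went from 491 and 484 CPM to 296 and 318 CPM (log2 fold change -0.69 ± 0.07). Zfp57, the zinc finger protein that keeps imprints methylated, went from 477 and 497 CPM to 292 and 351 CPM (log2 fold change -0.62 ± 0.08). These genes lay apart from control in both Hira-depleted libraries. After Ubn2 depletion Hells changed by 0.06 ± 0.08 (edgeR adjusted p = 0.584) and Zfp57 rose by 0.28 ± 0.07 (edgeR adjusted p = 0.00271). Pcna fell there too, to 414 and 408 CPM, with a log2 fold change of -0.25 ± 0.07 (edgeR adjusted p = 0.00693). The exception was Prdm14, a repressor of the de novo enzymes in naive ESCs, which was called higher after all 3 depletions, at log2 fold changes of 0.65 ± 0.12, 0.67 ± 0.13 and 0.83 ± 0.12 for Hira, Ubn1 and Ubn2. It was the single cofactor called after Ubn1 and after Ubn2 depletion.

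The list of readers of methylated DNA was taken by gene family and includes Mbd3 and Mbd4, of which Mbd4 is also in the base excision repair list. Of 8 readers, 2 were called higher after Hira depletion and 2 after Ubn2 depletion, none was called lower by edgeR or DESeq2, and 1 had an unadjusted p under 0.05 in the lower direction in each. After Ubn1 depletion none was called by either tool, and 1 had an unadjusted p under 0.05. Zbtb4 rose from 2.49 ± 0.622 CPM (SD, n = 2) to 8.29 ± 1.10 after Hira depletion, a log2 fold change of 1.69 ± 0.23 (edgeR adjusted p = 9.28e-06), and to 5.18 ± 0.477 CPM after Ubn2 depletion. Mbd2 rose by 0.71 ± 0.12 after Hira depletion, and Zbtb38 by 0.96 ± 0.11 after Ubn2 depletion, both on the log2 scale. The median log2 fold change of the readers was 0.30, 0.18 and 0.36 after Hira, Ubn1 and Ubn2 depletion, beside 0.01, -0.0024 and -0.0041 over all genes tested.

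The base excision repair list, which holds other glycosylases and the Gadd45 genes as well as later repair enzymes, was mixed. Of its 14 genes, 2 were called higher and 1 lower after Hira depletion, 2 higher after Ubn2 depletion and 1 lower after Ubn1 depletion. Gadd45a, a stress gene reported to take part in demethylation, went from 38.4 ± 0.849 CPM to 73.6 ± 2.79 after Hira and 74.5 ± 3.74 after Ubn2 depletion, and was at 37.9 ± 5.09 after Ubn1 depletion. Gadd45g rose after the same depletions by 2.10 ± 0.41 and 2.08 ± 0.41 on the log2 scale from a low control level of 0.488 CPM. The uracil glycosylase Smug1 fell by 0.93 on the log2 scale after Hira depletion (SE 0.12, edgeR adjusted p = 4.5e-06). Gadd45b fell by 0.74 after Ubn1 depletion (SE 0.17, edgeR adjusted p = 0.00466), from control libraries that differed widely, at 21.8 ± 7.53 CPM.

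Partners of the Tet enzymes comprised 10 genes, Prdm14 among them, of which 2 were called higher after Hira, 1 after Ubn1 and 2 after Ubn2 depletion, with 1 called lower after Ubn2 depletion. Idh1, which makes the 2-oxoglutarate that Tet enzymes consume, was that gene, at 98.7 ± 5.22 CPM in control and 63.5 ± 0.292 after Ubn2 depletion (log2 fold change -0.64 ± 0.07). It also fell after Hira and Ubn1 depletion, by 0.50 and 0.37 on the log2 scale. Sall4, which binds oxidised cytosine, rose by 0.63 ± 0.07 after Ubn2 depletion. Cxxc4 was called higher after Hira depletion from 0.113 CPM, too few counts in control for its fold to be read. It passed the filter only in comparisons with Hira-depleted libraries, so its call is no independent support. After Ubn1 and Ubn2 depletion 9 partners were tested. The 14 genes that supply methyl groups had a median log2 fold change of -0.25 after Hira, -0.05 after Ubn1 and -0.20 after Ubn2 depletion. After Ubn2 depletion 2 of them were called lower, Gnmt (log2 fold change -1.68 ± 0.33) and Bhmt (-1.07 ± 0.42), with 3.05 ± 0.0350 and 1.5 ± 0.294 CPM in control. After Ubn1 depletion none of the 14 was called by edgeR or DESeq2, with 2 at an unadjusted p under 0.05.

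Germline genes known as targets of silencing by DNA methylation were examined, without any measurement of methylation itself. The list as a whole was not silent in control, where it summed to 186 and 157 CPM. Whether its changes reflect silencing was not tested. Of 13 tested, 5 were called higher and 1 lower after Hira depletion, 1 higher and 2 lower after Ubn1 depletion, and 5 higher and 2 lower after Ubn2 depletion. Tex19.1, a germline gene also active in ESCs, measured 52.9 and 44.6 CPM in control, 84.7 and 90.7 after Hira, 84.9 and 85.9 after Ubn1 and 177 and 172 after Ubn2 depletion. It was higher in all 6 depleted libraries, and both Ubn2-depleted libraries lay above those of the other depletions. Any relation of this to the levels of the methylation enzymes was not tested. Taf7l rose to 10.9 ± 2.79 CPM after Hira depletion from 2.38 ± 0.834 (log2 fold change 2.23 ± 0.24), and Dazl to 36.5 ± 9.01 from 17.1 ± 2.81 (1.10 ± 0.15). Hormad1 rose after Ubn2 depletion by 1.13 ± 0.15. In the other direction, Stra8, a trigger of meiosis, fell from 20.5 ± 1.44 CPM to 5.53 ± 2.35 after Ubn2 depletion (log2 fold change -1.90 ± 0.19). Stra8 was below both controls after the other depletions too, at 12.8 and 10.1 CPM after Hira and 14.5 and 16.8 CPM after Ubn1. Mael and Stk31 fell after Ubn1 depletion by 1.28 and 0.59 on the log2 scale. The list therefore moved both ways in every depletion.

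The profiles of 2 members with the widest range of group means, Dnmt3l and Tet3, were compared with other genes across the 8 libraries. Nearest to Dnmt3l by Pearson's r of log2 CPM were Timp1 (0.985), Prkar2a (0.977) and Mcts2 (0.975), out of 10356 genes with a mean of at least 10 CPM. For Tet3 they were Sec16a (0.971), Mbd3 (0.965) and Ubl4a (0.963). Timp1 measured 20.3 and 22.4 CPM in control and 10.9 and 12.0 CPM after Hira depletion. With 8 libraries that share 4 conditions and so many genes searched, such values are a description and carry no test.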

How the data were processed

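RNA-seq was available for 8 libraries of mouse E14 ESCs, grouped by their labels into control, Hira, Ubn1 and Ubn2 depletion. The authors trimmed reads with Trim Galore, used STAR for alignment to GRCm38 and featureCounts for gene counts, and they deposited raw counts in 3 tables, each with the same control libraries (0 differing values). Strand setting, handling of reads with several matches and versions are not given in the sources used here. Of 55418 genes, 21460 had no count. Total counts per library had a median of 21848236. Precision is limited by 2 libraries a group, and 3 counts equal 0.0917 to 0.152 CPM.

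Each comparison was fitted on its 4 libraries with edgeR 4.0.16 in R 4.3.3 (filterByExpr, TMM with factors from 0.970 to 1.06, quasi-likelihood F test, Benjamini-Hochberg over all genes tested). The same fit was run on simulated counts in which few genes changed, unlike these data, so its error rate here is not known from that run. Calls needed an adjusted p under 0.05 and a fold over 1.5. SE is the log2 fold change divided by the square root of F. CPM used TMM factors of all 8 libraries. Positions and exon lengths came from GENCODE M21 on GRCm38, where 55233 symbols matched 1 gene. Copies were searched with blastn 2.17.0 at 95% identity or more over 300 bases or more. Tables and plots used pandas 2.3.3, numpy 2.4.6, scipy 1.17.1 and matplotlib 3.10.9 in Python 3.11.15, with limma 3.58.1 loaded by edgeR.

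The members and the lists were chosen with earlier results of these data known. Named were all 9 members, the targeted genes, up to 3 called genes per list and depletion with the smallest adjusted p, and the 3 genes most like each of 2 members with the widest range. One gene that this rule names is not reported here. Alternatives were DESeq2 1.42.0 (the Wald test, as in the study), DESeq2 size factors in edgeR, no filter, a minimum of 10 counts per library, a joint fit of the 8 libraries, replicate blocks, adjusted p alone and each library left out. Crossed blocks and the sum of Tdg with Gm9855 were added after seeing the data.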

Additional observations from a re-analysis of the deposited data

Results flagged for a closer look

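Dnmt1 moved in opposite directions after Hira and Ubn2 depletion. It fell by 0.23 on the log2 scale after Hira depletion and rose by 0.24 after Ubn2 depletion, both against the same control libraries. The fall kept an adjusted p under 0.05 in 7 of 11 alternatives and the rise in 10 of 11. The direct comparison of the 2 depletions gave a log2 fold change of -0.45 ± 0.08 (edgeR adjusted p = 0.000536), and both Hira-depleted libraries (340 and 375 CPM) lay below both Ubn2-depleted libraries (500 and 484 CPM). Over the 12 alternatives of this comparison the value stayed between -0.52 and -0.38, with adjusted p under 0.05 in all 12.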

How the results depend on the processing

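After Hira depletion Dnmt3l was called in all 11 alternatives, Uhrf1 in 10 and Tet1 in 9, and Dnmt1 kept an adjusted p under 0.05 in 7. Of the log2 fold changes of members recomputed under alternatives, 555 kept direction and side of the threshold, 29 no longer passed, 17 newly passed and 17 reversed, all of the last from changes that did not pass. The cause of these shifts was not tested.

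Leaving out 1 library gave 1 to 4 members called for Hira against control, 0 to 1 for Ubn2 against control (Tet3 without control replicate 2 or Ubn2-depleted replicate 2, Tet1 without Ubn2-depleted replicate 1), 1 to 4 for Hira against Ubn2 and 0 to 5 for Hira against Ubn1. Genes called after Ubn1 depletion ranged from 350 without control replicate 1 to 688, beside 568 with all libraries. Log2 fold changes that reversed in such fits ranged for Dnmt3a from -0.21 to 0.046 (Hira against control), -0.067 to 0.19 (Hira against Ubn2), -0.085 to 0.17 (Hira against Ubn1) and -0.12 to 0.082 (Ubn2 against Ubn1). After Ubn1 depletion they ranged from -0.067 to 0.11 for Uhrf1 and from -0.070 to 0.13 for Tet2. After Ubn2 depletion they ranged from -0.029 to 0.11 for Dnmt3l, -0.018 to 0.23 for Tet2 and -0.050 to 0.067 for Tdg, which without a filter was -0.012. Dnmt3b ranged from -0.25 to 0.060 for Hira against Ubn1 and Tet2 from -0.060 to 0.20 for Ubn2 against Ubn1.

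By adjusted p alone, members called were 5, 1 and 4 after Hira, Ubn1 and Ubn2 depletion and 6, 5 and 2 for Hira against Ubn2, Hira against Ubn1 and Ubn2 against Ubn1, among 6644, 1426, 7118, 6641, 4582 and 3019 genes in the same order. DESeq2 called 295 genes after Ubn1 depletion and 1022 for Ubn2 against Ubn1, beside 568 and 1584 by edgeR. A minimum of 10 counts in every library left 1 member called for Hira against Ubn1.

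Deviations of libraries with equal replicate numbers correlated between -0.131 and 0.116 across 16066 genes, so the numbers were not taken to pair libraries. With the replicate block the members called were 3, 0 and 0 after Hira, Ubn1 and Ubn2 depletion, Dnmt3b passed by adjusted p after Hira depletion (0.0289, and in 3 of 11 alternatives), and with the replicate block in a fit of all 8 libraries 1 member, Tet3, was called after Ubn2 depletion. The crossed pairing, added after seeing the data, called 2 members among 3599 genes for Hira against Ubn2 and 3 among 2653 for Hira against Ubn1. Tdg counts summed with those of Gm9855 gave an adjusted p of 0.0496 for Hira against Ubn2. Depth limits Tet3 most, with 90 counts in its lowest library.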
